A study of Mus musculus with 6 samples.

Results

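The sarcomere and Z-disc genes described here are 40 genes chosen by name for what their proteins do, all found among the 45320 Ensembl gene identifiers of the deposited tables. They comprise 10 genes of the thick filament and M-band, 9 of the thin filament, 16 of titin, the Z-disc and its attached proteins, 2 genes for ankyrin repeat proteins that bind titin, and 3 for muscle ubiquitin ligases. The RNA was that of intact brown fat depots of C57BL/6 mice. All animals began an energy-dense diet, rich in sugar and fat, at 4 weeks of age and ate it for 4 weeks, after which they were divided. Samples 13, 14 and 15 stayed on that diet alone (untreated), and samples 17, 33 and 35 received it with RO5508887, an experimental compound that inhibits the protease BACE1 (treated). The tables of samples 33 and 35 agreed in all 45320 values and were counted as 1 library, treated 33/35. This leaves 3 untreated and 2 treated libraries. The labels do not say how animals relate to samples, so p-values here reflect the spread among these libraries alone, which may be technical.

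The sarcomere is the contractile unit of striated muscle, in which thick filaments of myosin slide past thin filaments of actin. Thin filaments are anchored in the Z-disc, thick filaments are cross-linked at the M-band, and titin spans the distance between them. Most of these proteins are made in skeletal and heart muscle, often as separate fast-fibre and slow-fibre isoforms. Brown adipocytes contain no sarcomeres, although they share a developmental lineage with skeletal muscle and the depots lie next to muscle.

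For 30 of the 40 members a RefSeq promoter window (build GRCm38.p6, 250 bases before to 50 bases after the start) was at hand. Those of Ttn, Myl1, Myl3 and Ankrd1 are shown because these genes stand for the patterns described further on. Ttn followed the level common to the members, Myl1 was also measured in the libraries with few muscle transcripts, and Myl3 and Ankrd1 lay apart in treated 17. The windows are chr2:76982498-76982797 on the minus strand for Ttn, chr1:66945007-66945306 on the minus strand for Myl1, chr9:110763428-110763727 on the plus strand for Myl3 and chr19:36119795-36120094 on the minus strand for Ankrd1. Capitals mark matches on either strand to a MEF2 site, a CArG box (the site of serum response factor) or the MCAT element CATTCC (the site of TEAD factors). These matches do not overlap.
Ttn: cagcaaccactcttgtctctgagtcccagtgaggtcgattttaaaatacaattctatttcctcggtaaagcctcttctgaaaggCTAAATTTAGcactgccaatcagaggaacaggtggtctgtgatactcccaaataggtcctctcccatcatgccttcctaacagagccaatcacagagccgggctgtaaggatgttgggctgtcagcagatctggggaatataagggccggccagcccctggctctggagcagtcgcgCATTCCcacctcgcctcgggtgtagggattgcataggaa
Myl1: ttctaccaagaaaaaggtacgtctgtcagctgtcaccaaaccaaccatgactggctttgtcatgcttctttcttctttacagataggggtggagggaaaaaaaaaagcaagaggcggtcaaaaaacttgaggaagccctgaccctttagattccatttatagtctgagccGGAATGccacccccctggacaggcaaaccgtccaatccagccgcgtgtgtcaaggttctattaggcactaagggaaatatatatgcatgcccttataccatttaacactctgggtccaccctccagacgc
Myl3: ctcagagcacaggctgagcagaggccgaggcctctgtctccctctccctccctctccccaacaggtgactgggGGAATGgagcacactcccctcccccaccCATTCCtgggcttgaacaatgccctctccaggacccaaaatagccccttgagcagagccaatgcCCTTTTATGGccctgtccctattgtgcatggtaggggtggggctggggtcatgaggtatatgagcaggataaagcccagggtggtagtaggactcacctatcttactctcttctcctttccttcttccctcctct
Ankrd1: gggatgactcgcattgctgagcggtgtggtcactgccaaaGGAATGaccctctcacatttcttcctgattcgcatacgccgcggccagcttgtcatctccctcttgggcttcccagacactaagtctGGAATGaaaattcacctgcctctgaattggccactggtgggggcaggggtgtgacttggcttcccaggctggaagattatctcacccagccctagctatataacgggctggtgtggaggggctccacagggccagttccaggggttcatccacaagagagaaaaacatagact
The Ttn window holds a MEF2 match of 10 bases and an MCAT match. Myl3 holds a CArG match of 10 bases and 2 MCAT matches, Ankrd1 holds 2 MCAT matches and Myl1 holds 1. Over the 35 windows listed for these 30 members, 34.3% held CATTCC, against 14.7% of the 32851 promoter windows of the same length. A CArG box was found in 14.3% of the members' windows and 1.63% of all windows, and a MEF2 site in 11.4% and 3.19%. The E-box CANNTG, which myogenic factors and many others bind, was found in 82.9% and 72.3%, and TATAAA in 17.1% and 13.6%. Some genes have 2 windows that overlap, and a match describes letters only.

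Untreated 14 held the highest value of all 40 members. In 39 of them treated 17 came next, then treated 33/35, then untreated 13 and 15, an order that 12.9% of the 13527 genes tested shared. Ankrd1 was the exception, with treated 33/35 above treated 17. FPKM are fragments per transcript length and sequencing depth. Of the whole FPKM sum, the members accounted for 4.20% in untreated 14, 1.53% in treated 17, 0.661% in treated 33/35, and near 0.05% in untreated 13 (0.0498%) and 15 (0.0485%). Levels in untreated 14 exceeded 100 FPKM for 33 members. In bulk tissue, fewer cells of a type and less RNA per cell cannot be told apart.

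**Figure D1:**
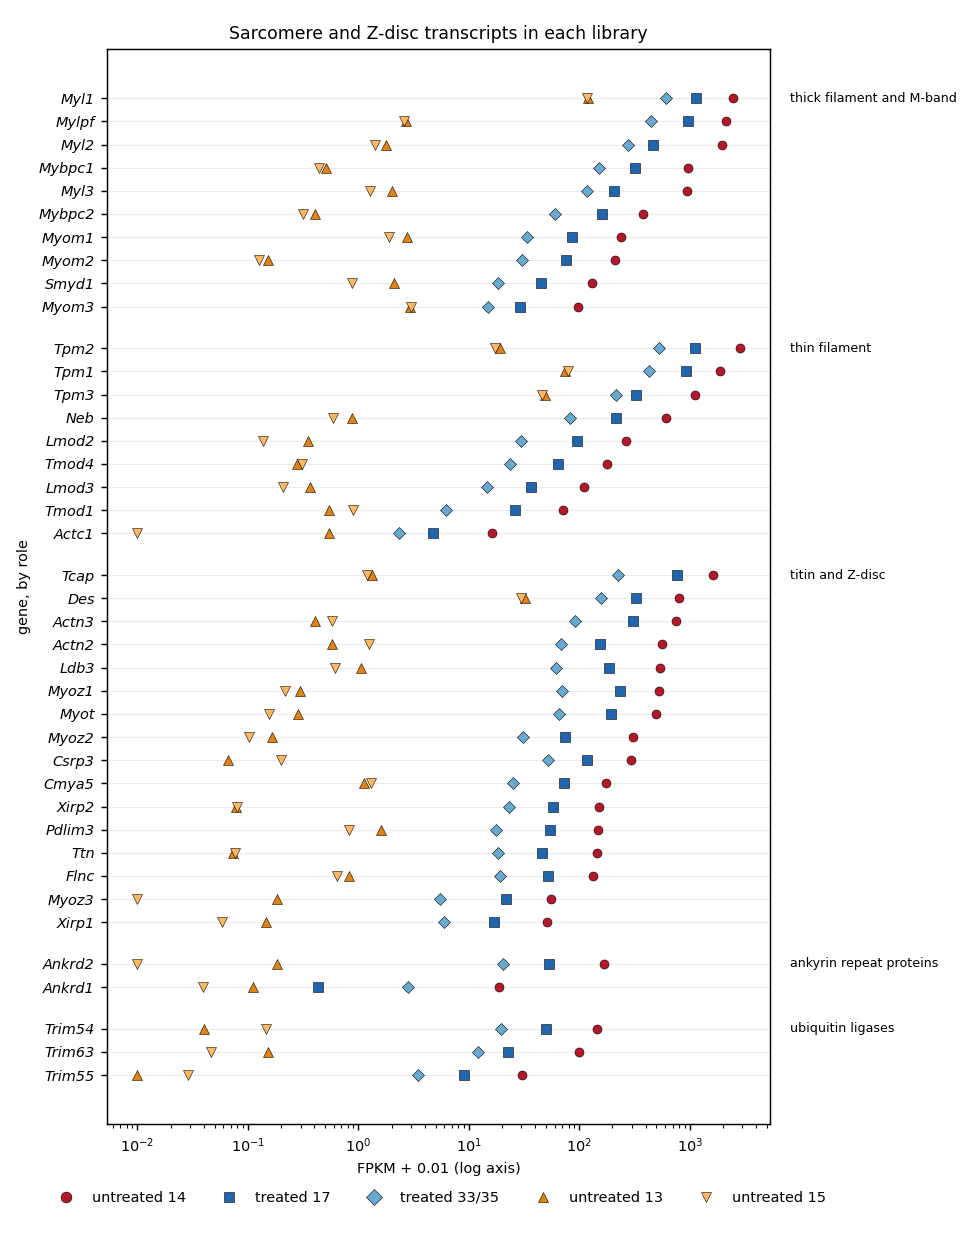
FPKM plus 0.01 of each member (rows, grouped by role and sorted by the level in untreated 14) on a log axis, with 1 symbol per library. Untreated 14 is rightmost in all 40 rows, untreated 13 and 15 lie leftmost, and in the Ankrd1 row treated 17 lies left of treated 33/35.

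The same order was seen in genes outside the list, which describe the tissue sampled. The 16 other skeletal muscle markers summed to 26743 FPKM in untreated 14, 10997 FPKM in treated 17, 4835 FPKM in treated 33/35, and 36.4 and 26.7 FPKM in untreated 13 and 15. Brown adipocyte markers were present in all libraries, with Elovl3 under 1 FPKM in untreated 14 (0.643 FPKM). Their 9 genes summed to 10097 and 10124 FPKM in untreated 13 and 15. The sums were 7682 and 9010 FPKM with the drug and 3878 FPKM in untreated 14. Each gene was lowest in untreated 14, by unlike amounts. Ucp1 measured 227 FPKM there, against 1837 and 1912 FPKM in untreated 13 and 15, and Cidea 124 FPKM, against 991 and 1066 FPKM. Differences were smaller for Fabp4, at 1509 FPKM against 3192 and 3010 FPKM, and Cox8b, at 942 FPKM against 1695 and 1874 FPKM. Of the 10 cardiac markers, Nppb and Myl7 were listed at 0 in every library, Mybpc3, Nppa and Tnni3 stayed under 1 FPKM, and the list summed to 51.2 FPKM in untreated 14 and 10.3 to 21.6 FPKM elsewhere. Myh6 and Tnnt2 of this list had the order of the muscle markers. Myh6 measured 28.9 FPKM in untreated 14, 8.30 and 4.55 FPKM with the drug, and 0.0274 and 0.0234 FPKM in untreated 13 and 15. Tnnt2 measured 6.70 FPKM, then 1.82 and 1.56 FPKM, then 0.159 FPKM and a listed 0, in the same libraries. Ryr2, Gja5 and Myl4 did not have this order. Ryr2 was lowest in untreated 14, at 0.323 FPKM, with 1.55 and 2.17 FPKM with the drug and 2.20 and 2.95 FPKM in untreated 13 and 15. Gja5 stayed between 2.16 and 3.17 FPKM. Myl4 measured 12.1 FPKM in untreated 14, 6.84 and 6.96 FPKM with the drug, and 5.94 and 4.87 FPKM in untreated 13 and 15. Smooth muscle and pericyte markers summed to 181 to 276 FPKM (8 genes). The 4 satellite cell and myogenic markers found summed to 43.6 FPKM in untreated 14, 4.66 and 2.97 FPKM with the drug, and 0.0212 and 0.0273 FPKM in untreated 13 and 15. Depth relative to untreated 13, read from the steps between low values, ranged from 0.810 in untreated 14 to 1.01 in treated 17, and the number of reads was not known.

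The design asks whether the drug changes these transcripts, and no member passed the test of treated against untreated libraries. The test was limma's moderated test on log2(FPKM + 0.5) over the 13527 genes whose mean reached 1 FPKM, two-sided, with Benjamini-Hochberg adjustment and a threshold of 0.05. All 40 members had such a mean. Of them 0 passed, against 0.0444% of all genes tested, and 0 had an unadjusted p under 0.05 (0.924% of all genes; smallest member p 0.220). In 0 members did the treated libraries both exceed every untreated one (5.5% of all genes), and in 0 did they both fall short of every untreated one (3.18%). The median log2 fold change of the members, treated minus untreated, was 3.04, beside 0.06 for all genes tested, and 39 members had a higher log2 mean with the drug. On the FPKM scale the direction was the opposite, with a lower mean in the treated libraries for all 40 members. Mylpf, the fast regulatory light chain, had the smallest p. It measured 2138 FPKM in untreated 14, 973 FPKM in treated 17, 448 FPKM in treated 33/35, and 2.68 and 2.58 FPKM in untreated 13 and 15. The log2 fold change of Mylpf was 4.58 with an SE of 3.25 (limma adjusted p = 1). Its FPKM means were 715 ± 1233 (SD, n = 3) in untreated and 711 ± 371 (SD, n = 2) in treated libraries.

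These counts turned on untreated 14. Without it 39 members were tested (Ankrd1 fell under the filter) and 29 of them rose with the drug, against 1.11% of the 13368 genes then tested. The median log2 fold change of all 39 was 5.71. The 10 that did not pass were Myom3, Smyd1, Tpm1, Actc1, Tmod1, Myoz3, Pdlim3, Des, Xirp1 and Trim55. In that fit both treated libraries held more muscle transcripts than both untreated ones, so an effect of the drug and one of muscle content cannot be told apart.

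Each member was next set against its own level in untreated 14. The ratio of treated 17 to untreated 14 had a median of 0.361 over the 40 members, with quartiles of 0.313 and 0.395. The ratio of treated 33/35 to untreated 14 had a median of 0.137, with quartiles of 0.122 and 0.153. Most members thus lay close to a common ratio in each treated library. A member was called departing if its ratio lay more than 1.5 times above or below the median, that is outside 0.240 to 0.541 in treated 17 and outside 0.0913 to 0.205 in treated 33/35. Within these bands lay 35 members in treated 17 and 36 in treated 33/35. The share of all genes within either band was not worked out, so these counts describe the members alone. No member departed in both libraries, but with only 5 and 4 of 40 departing, little overlap could arise in any case. Myl2, Myl3, Myoz2, Trim63 and Ankrd1 lay below the band in treated 17, whereas Mylpf, Myl1 and Tpm1 lay above it and Tmod1 below it in treated 33/35. With a factor of 2, Ankrd1 in treated 17 was the only departure left. These ratios describe single libraries, share the denominator and carry no test.

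**Figure D2:**
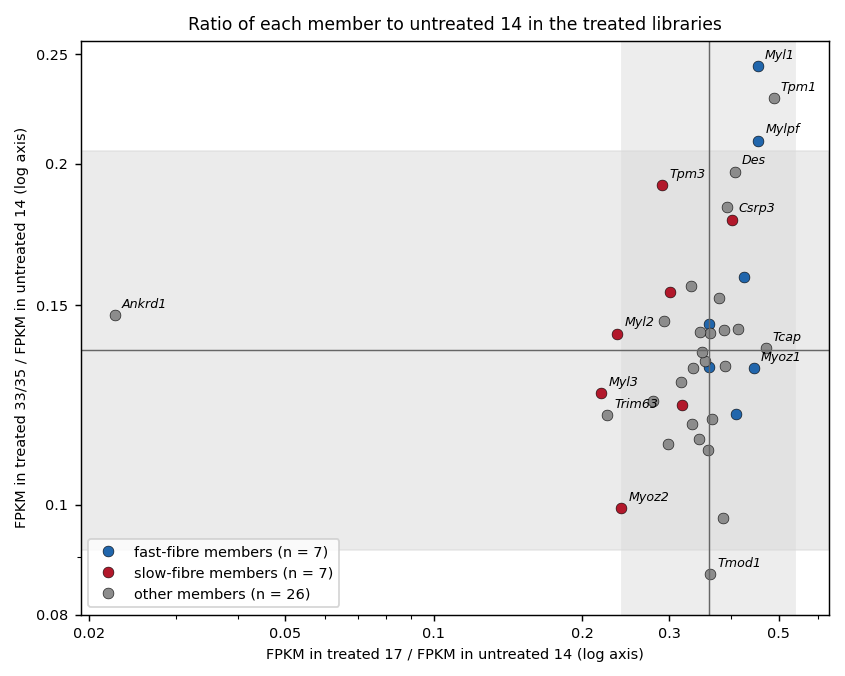
Ratio of FPKM in treated 17 (horizontal) and in treated 33/35 (vertical) to FPKM in untreated 14, on log axes, for the 40 members, coloured by fibre type. Lines are the medians (0.361 and 0.137) and grey bands reach 1.5 times above and below them. Ankrd1 stands far to the left, and the slow-fibre members Myl2, Myl3 and Myoz2 lie left of the band.

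Thick filament and M-band genes had median ratios of 0.354 in treated 17 and 0.149 in treated 33/35. Myl1, an essential light chain of fast fibres, measured 2491 FPKM in untreated 14, 1131 FPKM in treated 17, 608 FPKM in treated 33/35, and 120 and 117 FPKM in untreated 13 and 15. Its ratios of 0.454 and 0.244 were among the highest. Myl2, the regulatory light chain of slow fibres and heart ventricle, measured 1972 FPKM in untreated 14, 464 and 279 FPKM with the drug, and 1.78 and 1.41 FPKM in untreated 13 and 15. Myl3, the matching essential light chain, measured 944 FPKM in untreated 14, 206 and 118 FPKM with the drug, and 1.995 and 1.28 FPKM in untreated 13 and 15. Both slow light chains were low for their library in treated 17 (ratios 0.235 and 0.218) and ordinary in treated 33/35 (0.142 and 0.126). Mylpf, whose levels are given above, had ratios of 0.455 and 0.210. Mybpc1 and Mybpc2, the slow and fast myosin binding proteins C, measured 961 and 377 FPKM in untreated 14. Their ratios were 0.332 and 0.426 in treated 17 but nearly the same, 0.156 and 0.159, in treated 33/35. The M-band cross-linkers Myom1, Myom2 and Myom3 had ratios of 0.363, 0.362 and 0.301 in treated 17 and of 0.142, 0.145 and 0.154 in treated 33/35. Myom1 measured 238 FPKM in untreated 14, 86.4 and 33.7 FPKM with the drug, and 2.73 and 1.90 FPKM in untreated 13 and 15. It shares 207 exon bases with the opposite-strand gene Myl12a, which measured 186 and 169 FPKM in untreated 13 and 15. Strand use was not given, and the part of Myl12a reads in the Myom1 values was not tested. Myom2 was lower than Myom1 in untreated 13 and 15, at 0.143 and 0.116 FPKM, against 209 FPKM in untreated 14. Myom3 measured 97.2 FPKM in untreated 14, 29.2 and 15.0 FPKM with the drug, and 2.96 and 2.99 FPKM in untreated 13 and 15, which is the smallest spread across libraries among these cross-linkers. Smyd1, a methyltransferase that acts in myosin folding and assembly, measured 129 FPKM in untreated 14, with ratios of 0.346 and 0.142.

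Thin filament genes had median ratios of 0.360 and 0.134. Tpm2, a tropomyosin that winds along actin and regulates its contact with myosin, had the highest level of all members, 2863 FPKM in untreated 14. It measured 1125 and 525 FPKM with the drug, and 19.2 and 17.3 FPKM in untreated 13 and 15. Tpm1 measured 1891 FPKM in untreated 14, 924 and 433 FPKM with the drug, and 74.8 and 79.2 FPKM in untreated 13 and 15, and its ratio in treated 17, 0.489, was the highest of the 40. Tpm3, the tropomyosin gene that also serves slow fibres, measured 1125 FPKM in untreated 14, 326 and 215 FPKM with the drug, and 48.9 and 45.7 FPKM in untreated 13 and 15. Tropomyosin genes also make non-muscle isoforms, and near-identical pseudogene copies exist for Tpm3, so gene-level values cannot separate these. Neb, the giant ruler protein of the thin filament, measured 610 FPKM in untreated 14 with ratios of 0.355 and 0.134. The nucleators Lmod2 and Lmod3 and the fast-fibre pointed-end cap Tmod4 had ratios between 0.335 and 0.362 in treated 17 and between 0.112 and 0.132 in treated 33/35. Tmod1, another pointed-end cap, measured 72.1 FPKM in untreated 14, 26.1 FPKM in treated 17, 6.26 FPKM in treated 33/35, and 0.536 and 0.884 FPKM in untreated 13 and 15. Its ratio of 0.0869 was the lowest in treated 33/35. Tmod1 shares 1287 exon bases with Tstd2 on the opposite strand, and whether counting used strand was not given in the sources used here. Actc1, cardiac actin, was low in untreated 14 (16.1 FPKM) and measured 4.71 and 2.34 FPKM with the drug, 0.530 FPKM in untreated 13 and a listed 0 in untreated 15. Its coding sequence is close to that of skeletal actin, which was not analysed here, so its reads may be split between them.

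Titin and Z-disc genes had median ratios of 0.386 and 0.130. Tcap, which caps titin in the Z-disc, led this group with 1624 FPKM in untreated 14, 765 FPKM in treated 17, 223 FPKM in treated 33/35, and 1.31 and 1.19 FPKM in untreated 13 and 15. It was relatively high in treated 17 (ratio 0.471) and at the median in treated 33/35 (0.138). Ttn, titin itself, measured 144 FPKM in untreated 14, 45.8 and 18.5 FPKM with the drug, and 0.0639 and 0.0667 FPKM in untreated 13 and 15. The alpha-actinins, which cross-link actin in the Z-disc, differed by isoform in treated 17. Actn3, confined to fast fibres in muscle, measured 756, 310 and 90.9 FPKM in untreated 14, treated 17 and treated 33/35 (ratios 0.409 and 0.120), and Actn2 measured 556, 155 and 68.8 FPKM (ratios 0.278 and 0.124). The myozenins, which tether calcineurin to the Z-disc, showed the same contrast. Myoz1 of fast fibres measured 527, 235 and 69.6 FPKM in these libraries (ratios 0.446 and 0.132). Myoz2 of slow fibres and heart measured 310, 74.2 and 30.7 FPKM (ratios 0.240 and 0.0993), with 0.156 and 0.0914 FPKM in untreated 13 and 15. Myoz2 lay just outside the band in treated 17 (and inside it once the levels in untreated 13 and 15 were subtracted), and Actn2 was the next gene inside it. Myoz3 measured 56.1, 21.6 and 5.46 FPKM, with 0.175 FPKM in untreated 13 and a listed 0 in untreated 15.

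Other Z-disc and cytoskeletal genes stayed inside both bands. Ldb3, a PDZ-LIM protein of the Z-disc, Myot, which bundles actin there, and Flnc, the muscle filamin, had ratios of 0.344, 0.390 and 0.387 in treated 17 and 0.114, 0.133 and 0.143 in treated 33/35. Pdlim3, Cmya5, Xirp1 and Xirp2 ranged from 0.334 to 0.414 and from 0.118 to 0.152. Cmya5, a large protein that binds alpha-actinin and desmin, measured 174 FPKM in untreated 14, 72.1 and 24.9 FPKM with the drug, and 1.12 and 1.29 FPKM in untreated 13 and 15. It shares exon bases with opposite-strand genes, as do 11 more of the members. Des, the intermediate filament desmin, measured 799 FPKM in untreated 14, 326 and 157 FPKM with the drug, and 32.2 and 29.9 FPKM in untreated 13 and 15 (ratios 0.408 and 0.197). Csrp3, the muscle LIM protein, measured 293, 118 and 52.4 FPKM in untreated 14, treated 17 and treated 33/35 (ratios 0.401 and 0.179).

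Ankrd1 departed most. This gene encodes an ankyrin repeat protein that binds titin's spring region and is known to respond to mechanical load and injury. It measured 18.9 FPKM in untreated 14, 0.426 FPKM in treated 17, 2.78 FPKM in treated 33/35, and 0.102 and 0.0289 FPKM in untreated 13 and 15. Its ratio was 0.0225 in treated 17, against 0.147 in treated 33/35, close to the median there. In treated 17 it thus stood at 0.0625 of the members' median ratio. Ankrd1 lies at chr19:36111961-36120099 (minus strand) and shares no exon bases with another annotated gene. The log2 fold change of Ankrd1 was -0.07 with an SE of 1.84 (limma adjusted p = 1), the only negative value among the members. Its paralog Ankrd2, which is enriched in slow muscle, measured 168 FPKM in untreated 14, 53.5 and 20.6 FPKM with the drug, 0.175 FPKM in untreated 13 and a listed 0 in untreated 15. Its ratios of 0.318 and 0.123 were ordinary.

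The muscle ubiquitin ligases among the members are sarcomere-associated proteins that mark other proteins for degradation. Trim63 (MuRF1), known for its induction in muscle wasting, measured 100 FPKM in untreated 14, 22.5 and 12.01 FPKM with the drug, and 0.142 and 0.0367 FPKM in untreated 13 and 15. Its ratio of 0.224 lay below the band in treated 17, and that of 0.120 inside it in treated 33/35. Trim54 measured 144, 50.3 and 19.6 FPKM in untreated 14, treated 17 and treated 33/35 (ratios 0.350 and 0.136), with 0.0298 and 0.136 FPKM in untreated 13 and 15. Trim55 measured 30.3, 9.03 and 3.43 FPKM in them (ratios 0.298 and 0.113), with a listed 0 in untreated 13 and 0.0190 FPKM in untreated 15.

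Fast-fibre and slow-fibre members had different median ratios in treated 17. All 7 fast-fibre members (Actn3, Mybpc2, Myoz1, Mylpf, Myl1, Tmod4, Myom2) had ratios above the median there, from 0.362 to 0.455. Tmod4 and Myom2, both at 0.362, were practically at that median of 0.361. Of the 7 slow-fibre members (Myl2, Myl3, Tpm3, Myoz2, Myom3, Csrp3, Ankrd2) 6 lay below the median, and Csrp3 lay above. Mybpc1, the slow myosin binding protein C, was not on this list. The medians were 0.426 for the fast and 0.290 for the slow members. In treated 33/35 they were close, 0.145 and 0.142, with 4 of 7 fast members above and 3 of 7 slow members below the median. The difference was not tested, since each value is a single library. Myosin heavy chain and troponin genes, which are not members, gave like values in treated 17, where 5 fast genes had ratios of 0.419 to 0.465 and 4 slow genes 0.213 to 0.238. In treated 33/35 those ranges were 0.151 to 0.203 and 0.107 to 0.141.

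The ratio of treated 33/35 to treated 17 does not use untreated 14. Its median over the members was 0.397, with quartiles of 0.351 and 0.469. Ankrd1 was at 6.53, followed by Tpm3 at 0.661 and Myl2 at 0.603, all above 1.5 times the median. Tmod1 at 0.240 and Myoz3 at 0.253 lay below the band. The slow-fibre members had a median of 0.513 and the fast-fibre members one of 0.373. Both libraries are treated, so this contrast says nothing of the drug.

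Some members were also measured in untreated 13 and 15, where muscle transcripts were few. Over all 45320 genes, 12964 reached 1 FPKM in untreated 13 and 12729 in untreated 15, and the share reaching it in both was not worked out. Of the 40 members, 12 reached 1 FPKM in both libraries, 4 in only 1 of them (Smyd1, Actn2, Ldb3 and Pdlim3) and 24 in neither. Those 12 were Myl1, Tpm1, Tpm3, Des, Tpm2, Myom3, Mylpf, Myom1, Myl3, Myl2, Tcap and Cmya5. The first 5 of these, the highest in both libraries, supplied 91.7% and 93.1% of the members' summed FPKM in untreated 13 and 15, against 38.4% in untreated 14. Among the 12, values in untreated 15 were 0.641 to 1.16 times those in untreated 13. The other 35 members together stood at 0.181% and 0.145% of their summed level in untreated 14.

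Relative to untreated 14, the median member stood at 0.146% in untreated 13 and 0.0951% in untreated 15. Myl1 stood at 4.80% and 4.68%, Tpm3 at 4.35% and 4.07%, Tpm1 at 3.96% and 4.19%, Des at 4.02% and 3.74%, and Myom3 at 3.04% and 3.08%. Only these 5 members reached 3% in both libraries, and Myom3 did so at levels of 2.96 and 2.99 FPKM. Tpm2, at 0.670% and 0.606%, and Mylpf, at 0.126% and 0.120%, reached 1 FPKM with a far smaller share of their level in untreated 14. Skeletal light chain Mylpf was thus 2.68 and 2.58 FPKM where its partner Myl1 was 120 and 117 FPKM. Smooth muscle and pericyte markers, which accompany desmin and tropomyosin in vessel walls, summed to 192 and 195 FPKM in these libraries. Most of this was Rgs5, at 117 and 146 FPKM. Acta2 measured 30.6 and 17.2 FPKM, Tagln 20.7 and 12.5 FPKM, Smtn 10.8 and 11.4 FPKM, and Myh11 9.66 and 5.70 FPKM. The part of these markers' cells in the members' values was not tested. After the mean of untreated 13 and 15 was subtracted from both libraries, Myl1 (0.206) and Mylpf (0.209) still lay above the band in treated 33/35, and Tpm1 (0.196) did not. In treated 17 the same subtraction left 4 departing members, since Myoz2 (0.239) then lay just inside the band, whose lower limit was 0.238.

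**Figure D3:**
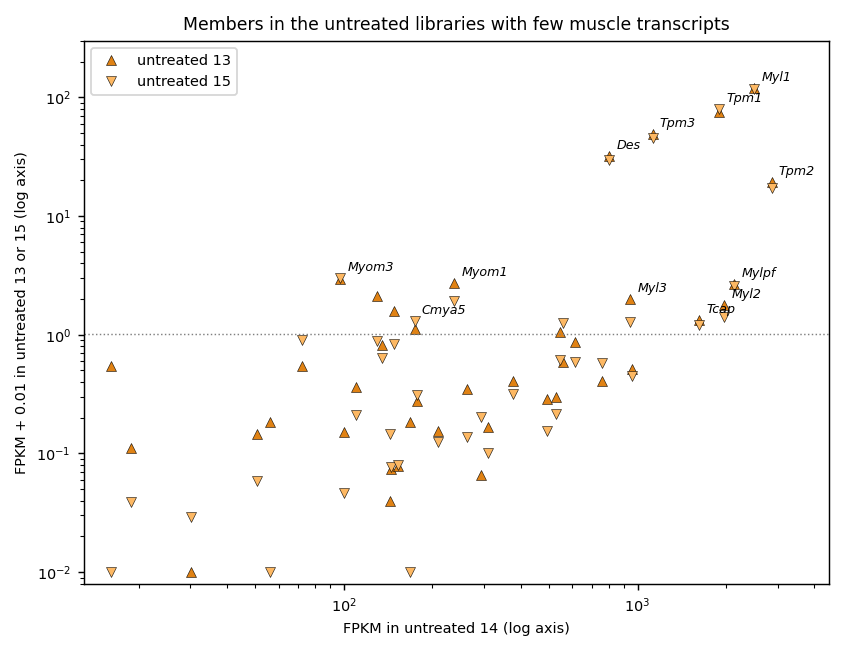
FPKM of each member in untreated 14 (horizontal) against FPKM plus 0.01 in untreated 13 and 15 (vertical), on log axes, with the dotted line at 1 FPKM. The 12 members at 1 FPKM or more in both are named, and Myl1, Tpm1, Tpm3, Des and Tpm2 stand above the rest.

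A second list of 42 genes of the contractile apparatus and its non-muscle relatives was set beside the members. Of these, 39 were tested and 0 passed (limma; 0 had an unadjusted p under 0.05), with 29 higher and 10 lower log2 means and a median log2 fold change of 0.24. Without untreated 14, 10 of 38 rose and 0 fell, against 1.11% of all 13368 genes then tested that rose. Of the 40 genes that reached 1 FPKM in untreated 14, 22 lay within the members' band in treated 17, 15 above it and 3 below it. The share of all genes within that band was not worked out. The muscle genes Nrap and Klhl41 had ratios of 0.395 and 0.349 in treated 17. Below the band lay Fbxo32 (atrogin-1, a wasting-induced ligase like Trim63) at 0.177, with 66.0 FPKM in untreated 14 and 11.7 FPKM in treated 17, and Igfn1 and Obsl1 at 0.191 and 0.234.

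Some non-muscle relatives of the members had another order of libraries or differed less between them. Actn4, a cytoskeletal alpha-actinin, measured 59.9 FPKM in untreated 14, 102 and 132 FPKM with the drug, and 130 and 124 FPKM in untreated 13 and 15, which is a ratio of 2.21 in treated 33/35 against 0.124 for Actn2. Myl6, the non-muscle essential light chain, measured 245 FPKM in untreated 14, 361 and 411 FPKM with the drug, and 498 and 445 FPKM in untreated 13 and 15. Tmod3 had ratios of 1.35 and 1.16, against 0.363 and 0.0869 for Tmod1. These 3 genes lay farthest from the members' median ratio. Tpm4, a non-muscle tropomyosin, measured between 42.4 and 50.8 FPKM in the 5 libraries. The filamin Flna had the members' order of libraries over a small range, with 49.3 FPKM in untreated 14, 46.8 and 39.9 FPKM with the drug, and 36.4 and 34.1 FPKM in untreated 13 and 15. Its ratio in treated 17 was 0.950, against 0.387 for Flnc. Other relatives were closer to the members. The light chain Myl12a had the members' order, with 554 FPKM in untreated 14, 257 and 230 FPKM with the drug, and 186 and 169 FPKM in untreated 13 and 15. Its ratio was 0.464 in treated 17, inside the band, and 0.415 in treated 33/35, above it. Of the 39 tested genes of the second list, 35 were highest in untreated 14. The share of all genes tested that were highest in untreated 14 was not worked out. The differences between relatives were not tested.

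**Figure D4:**
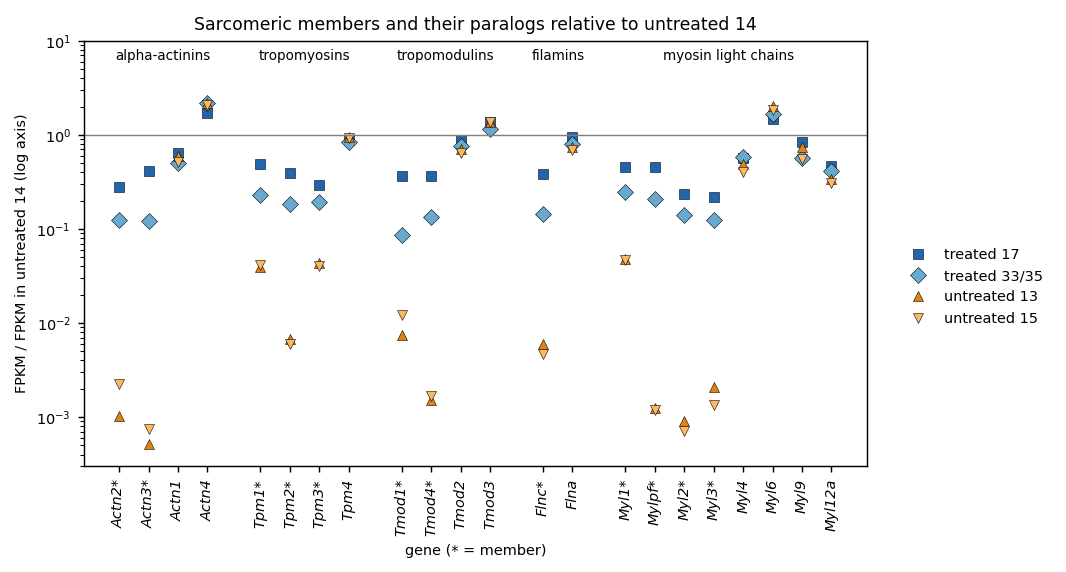
FPKM relative to untreated 14 (log axis, line at 1) in the other 4 libraries for members (asterisk) and related genes of 5 families. Members fall from treated 17 to treated 33/35 to untreated 13 and 15, while Actn4, Tmod3 and Myl6 lie above 1.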

How the data were processed

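Trizol-extracted total RNA of brown adipose tissue was sequenced by Illumina's total RNA protocol, per the labels' protocols. Each sample has a deposited table of FPKM values computed by the authors, per the file headers. The submitters' processing notes list CASAVA 1.7 and GRCm38. Aligner, quantifier, annotation and strand use are not given in the sources used here. Symbols and coordinates came from GENCODE M21 (GRCm38), which held 44395 of 45320 identifiers, and promoter sequences from RefSeq (GRCm38.p6).

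Values were tested with limma 3.58.1 in R 4.3.3 on log2(FPKM + 0.5), with a variance trend and 3 residual df, for genes whose mean reached 1 FPKM. Low genes' fold changes are understated on this scale. The test was checked on simulated data, and the outcome is not given here. No conclusion is drawn from that check on the test's power for the members, whose spread turned on untreated 14. Ratios used members at 1 FPKM or more in untreated 14, which all 40 reached. A listed 0 can be a failed estimate. No counting interval was given, since read numbers were not known. Python 3.11.15, numpy 2.4.6, pandas 2.3.3 and matplotlib 3.10.9 were used.

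Members, lists and tests were chosen with earlier results of these data known. Every member is named. Members that departed from the ratios to untreated 14, reached 1 FPKM in untreated 13 and 15, were listed at 0 in a library, or were the 2 highest of a role get all values. Of the second list, the 3 genes farthest from the members' median are named by rule, and the others were picked with their values in view. The ratio of treated 33/35 to treated 17 was added after seeing the data. The labels name no batch. Pseudocount, filter, scaling, variance model, weights, threshold, left-out libraries, the identical tables and the forming of ratios were varied. Cdh15 had no matching identifier and was not analysed here. Some genes of the second list are not reported here.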

Additional observations from a re-analysis of the deposited data

How the results depend on the processing

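The count of 0 members past the threshold held under every pseudocount, filter, scaling, weighting and threshold tried, and ranged from 0 to 29 as each library was left out, with the 29 found without untreated 14. For the second list that range was 0 to 10, and for all genes 0 to 158, again with the highest values without untreated 14. Over all genes the test called 6, which became 2 with a pseudocount of 0.1, 0 without a filter, 1 with a mean of at least 5 FPKM and 10 with sample weights. The members' median log2 fold change stayed positive, from 1.69 without untreated 15 to 5.71 without untreated 14. It was 5.51 with sample weights, where 0 members passed. Ankrd1 turned positive with a pseudocount of 0.1 (0.64), with sample weights (1.48), with the identical tables counted as 2 replicates (0.23) and without treated 17 (0.84), and over the left-out libraries it ranged from -0.99 to 0.84. Actc1 turned negative without untreated 15 and ranged from -0.10 to 2.42. None of these passed.

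Ratios of summed FPKM were 0.171 for treated 33/35, 0.0134 for untreated 13 and 0.0130 for untreated 15, above the medians of single members because Myl1, Tpm1, Tpm2, Tpm3 and Des carry much of the sum. With a factor of 2, departures numbered 1 in treated 17, 0 in treated 33/35 and 1 between the treated libraries. With the second list's median as the common ratio, 16 members departed in treated 33/35. At 0.5 and 5 FPKM, 19 and 5 members were present in both untreated 13 and 15, and 13 to 15 reached 1 FPKM when only 1 of these libraries was used. No paired analysis was possible because the groups share no sample numbers. Ankrd1 and Actc1 had the lowest FPKM of the members in untreated 14, the number of fragments behind them was not known, and no interval could be given for their ratios.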

Other observations

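Myogenic regulators, which act upstream of sarcomere genes during muscle formation and repair, differed among themselves in their ratios to untreated 14. Myog measured 30.8 FPKM in untreated 14, 1.54 FPKM in treated 17 and 1.21 FPKM in treated 33/35, and was listed at 0 in untreated 13 and 15. Its ratios to untreated 14 were 0.05001 and 0.0394, both below those of every member except Ankrd1 in treated 17. Myod1 measured 10.1, 1.88 and 1.18 FPKM in the same 3 libraries, with a ratio of 0.185 below the members' band in treated 17 and of 0.116 inside it in treated 33/35. Myf5 went the other way, with 1.67, 0.940 and 0.464 FPKM and ratios of 0.562 and 0.277, above both bands. Pax7, the marker of satellite cells, measured 0.959, 0.309 and 0.119 FPKM, with ratios of 0.322 and 0.124 near the members' medians. Pax7 was under the 1 FPKM in untreated 14 asked of members for a ratio, and Myf5 was little above it, so their ratios rest on low values. Myog, Myod1, Myf5 and Pax7 are the 4 of 5 genes of the satellite cell list that matched. They are described without a test and were picked out after their values were seen.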
